A study of Mus musculus with 384 samples.

Results

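A set of 10 genes that cells switch on within minutes of a stimulus, and that are also known to rise when tissue is cut and digested into single cells, were followed in single tdTomato+ cells of the mouse midbrain. They were *Fos*, *Fosb*, *Fosl2*, *Jun*, *Junb*, *Egr1*, *Nr4a1*, *Arc*, *Klf10*, and *Atf3*, taken by name from the 41266 gene entries of the count table that had a value in every cell. They were measured in the 209 of 384 deposited cells in which at least 500000 reads had been counted on genes. All cells came from DAT-IRES-Cre;Ai9 mice (strain label C57BL6/J), in which Cre expressed from the dopamine transporter gene *Slc6a3* turns on a tdTomato reporter for good, so that a cell stays labeled after the driver gene has been turned off. Midbrain slices that included the hypothalamus were digested with papain, triturated, sorted for tdTomato and against propidium iodide, and captured on Fluidigm C1 chips at room temperature. There were 8 mice. Mice 1, 4, and 6 were labeled female (25, 33, and 36 days old) and mice 2, 3, 5, 7, and 8 male (27, 27, 28, 24, and 24 days old), while the description of the series counts 6 males and 2 females. Each mouse was captured in a run of its own, so mouse and run cannot be told apart, and no tissue that skipped the dissociation was compared, so a level reached in the living animal and a level reached on the bench cannot be told apart. The cells used per mouse were 18, 34, 45, 12, 38, 17, 24, and 21 for mice 1 to 8.

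Immediate early genes need no new protein to be transcribed: a rise in calcium, cAMP, or growth factor signaling activates factors such as CREB and SRF that are already sitting on their promoters. Most of their products are transcription factors. Fos and Jun proteins pair through leucine zippers to form AP-1, Egr1, Klf10, and Nr4a1 bind DNA as zinc finger proteins, the last of them as a nuclear receptor, and Atf3 is a stress-induced partner of the Jun proteins. *Arc* is the exception, encoding a synaptic protein that takes AMPA receptors out of the membrane. In neurons these transcripts mark recent firing, and enzymatic dissociation and warming are known to raise several of them in single-cell suspensions.

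Since several of these genes were found together in the same cells, the stretch before the transcription start is shown for 3 that were nearly always accompanied by *Fos* or were *Fos* itself (*Fos*, *Fosb*, and *Junb*) and for *Jun*, which was also widespread in cells without *Fos*. These are the 250 bases upstream of the RefSeq start (GRCm38.p6), 5′ to 3′ on the strand of the gene, and the capitals mark TGACG, the core of the CREB binding site. *Fos* lies at chr12:85473890-85477274 (upstream bases chr12:85473640-85473889, plus strand), *Fosb* at chr7:19302696-19310118 (chr7:19310046-19310295, minus strand, before the start of the transcript that the table uses, which lies inside the gene), *Junb* at chr8:84976909-84978748 (chr8:84978749-84978998, minus strand), and *Jun* at chr4:95049036-95052222 (chr4:95052223-95052472, minus strand).
Fos: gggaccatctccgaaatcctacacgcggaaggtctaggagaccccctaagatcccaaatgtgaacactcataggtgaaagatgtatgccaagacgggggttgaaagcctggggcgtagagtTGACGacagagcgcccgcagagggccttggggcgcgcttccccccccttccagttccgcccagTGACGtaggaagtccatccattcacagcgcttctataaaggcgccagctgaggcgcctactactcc
Fosb: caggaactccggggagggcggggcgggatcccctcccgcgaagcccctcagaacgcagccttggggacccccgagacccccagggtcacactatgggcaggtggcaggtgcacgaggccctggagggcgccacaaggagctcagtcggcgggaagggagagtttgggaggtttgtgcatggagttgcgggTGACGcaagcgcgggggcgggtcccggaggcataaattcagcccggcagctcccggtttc
Junb: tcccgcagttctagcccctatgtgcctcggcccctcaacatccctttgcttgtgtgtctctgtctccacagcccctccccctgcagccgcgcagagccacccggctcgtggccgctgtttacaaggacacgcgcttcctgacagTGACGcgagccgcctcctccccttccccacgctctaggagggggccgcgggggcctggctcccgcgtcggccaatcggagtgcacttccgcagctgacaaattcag
Jun: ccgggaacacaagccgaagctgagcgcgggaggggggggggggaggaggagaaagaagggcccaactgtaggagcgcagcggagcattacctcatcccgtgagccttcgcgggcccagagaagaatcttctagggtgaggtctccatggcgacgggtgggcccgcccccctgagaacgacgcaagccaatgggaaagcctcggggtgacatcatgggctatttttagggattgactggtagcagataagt
The first *Fos* match begins 129 bases before the start and the other 66 bases before it. *Fosb* has 1 match at 60 bases and *Junb* 1 at 106 bases, and *Jun* has none on either strand. A promoter was given for 7 of the 10 genes, and TGACG on either strand was in 5 of these 7, the others being *Nr4a1* with 4 matches and *Atf3* with 1, both on the opposite strand. *Fosl2* had no match, although 12 of its 14 cells had *Fos*, and of the 24 cells with *Nr4a1* 21 had *Fos*. No promoter was given for *Arc*, whose 31 cells all had *Fos*. Of all 32851 promoter windows of this length, 17.8% held TGACG. The full site TGACGTCA (in 1.55% of all windows), the AP-1 site TGANTCA (6.75%), and the CArG box bound by SRF (1.47%) were in none of the 7, and TATAAA (12.4%) was in *Fos* alone. Sites further than 250 bases upstream could not be seen, and *Egr1* was not among the 7. Matches of letters are a description and do not show binding, and their part in which genes were found together was not tested.

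The label of the cells, dopamine neuron, held for nearly all of them. *Th*, the rate-limiting enzyme of dopamine synthesis, had at least 10 counts in 198 of 209 cells and *Slc6a3* in 205, and 197 cells had both. Totals ranged from 500672 to 1544810 counts per cell (median 780466) and summed to 8499655–32834172 per mouse. Microglial and vascular marker lists summed to at most 2.76 and 0.853 CPM (counts scaled to a total of 1000000 per mouse) in any mouse, with *C1qa*, *C1qb*, *Aif1*, *Cldn5*, and *Rgs5* at 0. The 5 astrocyte markers summed to 554.5 CPM in mouse 1, 40.45 CPM in mouse 2, and 0–4.59 CPM in the others. Of the oligodendrocyte markers, *Mbp* was at 14.8–568.5 CPM over the mice, and *Mog* and *Cspg4* were at 0.

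There were 5 cells that stood apart, and they held a large share of the counts of several of the 10 genes. They had 1–50 counts of *Snap25*, a synaptic vesicle fusion protein present in neurons, against 160 or more in each of the other 204 cells. In mouse 1, 3 such cells held 1036–1397 counts of the glutamate transporter gene *Slc1a3* and 978–1106 of the gap junction gene *Gja1*, both astrocyte markers. A cell of mouse 2 held 1172 counts of *Gja1* and 987 of the intermediate filament gene *Vim* but 8 of *Slc1a3*, and the last cell, of mouse 3, held none of these 3 genes. These 5 of 209 cells contributed 33.0% of all *Fos* counts, 38.5% of *Jun*, 39.3% of *Egr1*, 34.8% of *Fosb*, 34.4% of *Junb*, and 73.1% of *Atf3*, but 3.90% of *Arc* and 0% of *Nr4a1*. Because they stand apart from the label, levels are given below with and without them, a division by *Snap25* that was chosen after the values had been seen.

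The Fos family held the most abundant member and the rarest but one. *Fos*, the inducible partner in AP-1, had at least 10 counts in 137 of 209 cells, 65.6% (exact 95% binomial interval 58.7–72.0%). By mouse this share was 50.0% at the lowest (mouse 4), with 94.4% at the highest (mouse 1). The interval, like those given below, covers counting error over cells and not this spread between mice. The *Fos* counts of all cells of a mouse, summed and scaled to CPM, were 1402 in mouse 1, 504 in mouse 2, and 69.8 to 318 in mice 3 to 8 (median of the 8 mice 164 CPM, mean 363 ± 442 SD). Mouse 1 was thus 2.78-fold above the next mouse, and mouse 3 was the lowest. Without the 5 cells that lacked *Snap25*, mouse 1 came to 524 CPM and mouse 2 to 353 CPM, while mouse 3 stayed at 69.4 CPM, so mouse 1 remained highest but only 1.48-fold above mouse 2 (mean 234 ± 151 SD, n = 8 mice).

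*Fosb*, whose stable splice product builds up with repeated stimulation, was in 66 cells (31.6%, interval 25.3–38.4%), from 13.3% of cells in mouse 3 to 77.8% in mouse 1. Its level was 137 CPM in mouse 1 and 62.3 CPM in mouse 2 and ran from 7.10 CPM (mouse 3) to 31.5 CPM in the rest (median of all mice 25.3 CPM). Without the 5 cells, mouse 1 held 73.6 CPM and no other mouse more than 31.5 CPM. *Fosl2*, encoding the later and longer lived Fra-2, was in 14 cells (6.70%, interval 3.71–11.0%), with 14.4 CPM in mouse 1, a median of 2.02 CPM, and 0.206 CPM (3 counts) in mouse 6. In cells with *Snap25* the order changed, since mouse 1 had 3.02 CPM and mouse 4 the most, 7.06 CPM. *Fosl2* lies at chr5:32136472-32157840.

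Within the Jun family, *Jun* was as widespread as *Fos* but at a lower level. It had at least 10 counts in 138 cells (66.0%, interval 59.2–72.4%), from 42.2% of cells in mouse 3 to 100% in mouse 1. Its level was 568 CPM in mouse 1, with a median of 68.9 CPM and a lowest value of 25.8 CPM (mouse 3). The next highest was mouse 6 at 112 CPM, 5.10-fold under mouse 1. Of the *Jun* counts of mouse 1, 72.5% lay in its 3 cells without *Snap25*, and the other 15 cells gave 182 CPM, 1.63-fold above mouse 6. *Junb*, a Jun protein that can oppose Jun at some promoters, was in 29 cells (13.9%, interval 9.49–19.3%), 10 of them in mouse 1. Its level was 85.1 CPM in mouse 1 and 1.29 CPM (mouse 4) to 14.7 CPM (mouse 6) elsewhere (median of all mice 9.53 CPM), and mouse 1 still held 45.3 CPM, 3.08-fold above the next, without its 3 cells.

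*Atf3*, which neurons are known to switch on after axon injury and many cells on stress, was all but absent. At least 1 count was seen in 5 cells (2.39%) and at least 10 in 4 cells (1.91%, interval 0.524–4.83%). The total was 1038 counts in mouse 1 (81.4 CPM), 382 counts in mouse 2 (13.1 CPM), and 0 in mice 3 to 8, where 3 counts would have been 0.0914–0.353 CPM. All counts of mouse 1 came from its 3 cells without *Snap25*, a single one of which held 69.3% of them. The counts of mouse 2 came from a pair of cells with high *Th* (12051 and 9713 counts), which had 343 and 39 counts of *Atf3*. A comparison of cells with and without *Atf3* could not be made, because 0 mice had 3 cells with it. *Atf3* lies at chr1:191170296-191183333.

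Among the zinc finger genes, *Egr1*, which is driven by SRF and marks recent activity, was detected in 90 cells (43.1%, interval 36.2–50.1%), from 15.6% of cells in mouse 3 to 83.3% in mouse 1. Most of these cells held it well above the limit, as 33.0% of all cells still had it when 50 counts were asked for. The level was 1137 CPM in mouse 1, 335 CPM in mouse 6, 309 CPM in mouse 2, and 24.7 CPM in mouse 3, the lowest (median 136 CPM). Without the cells that lacked *Snap25* mouse 1 had 462 CPM, mouse 6 the same 335 CPM, and mouse 2 only 125 CPM, as a single cell had held 60.6% of the *Egr1* counts of mouse 2. *Klf10*, a target of TGF-β signaling, was in 27 cells (12.9%, interval 8.69–18.2%), and its level spread 4.86-fold over the mice, from 4.85 CPM (mouse 5) to 23.6 CPM (mouse 1) with a median of 11.0 CPM. In mouse 1 a single cell without *Snap25* held 92.4% of the *Klf10* counts, and the other cells gave 2.104 CPM, the lowest of the 8, so that the range in cells with *Snap25* was wider, from 2.104 to 21.7 CPM (mouse 6). *Klf10* (chr15:38291464-38300711) overlaps the RefSeq entry *Gm35248*, and reads on shared bases would have been left out.

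The nuclear receptor gene *Nr4a1* (chr15:101253902-101274795) was in 24 cells (11.5%, interval 7.498–16.6%) and did not follow mouse 1. It was highest in mouse 2 (15.5 CPM), had a median of 4.00 CPM, and was lowest in mouse 5 (0.908 CPM). Mouse 1 had 2.43 CPM, in the lower part of the range, so the mouse that led the other 9 genes did not lead here. Its relative *Nr4a2*, a factor that dopamine neurons need throughout life, was in 94.3% of cells at 252–479 CPM, with mouse 1 the lowest. *Arc* (chr15:74669081-74672570) was in 31 cells (14.8%, interval 10.3–20.4%), at 72.7 CPM in mouse 1, a median of 12.6 CPM, and 3.75 CPM in mouse 7, the lowest. Of the *Arc* counts of mouse 1, 5.82% lay in the cells without *Snap25*, and 80.0 CPM remained without them, 2.08-fold above mouse 6.

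**Figure D1:**
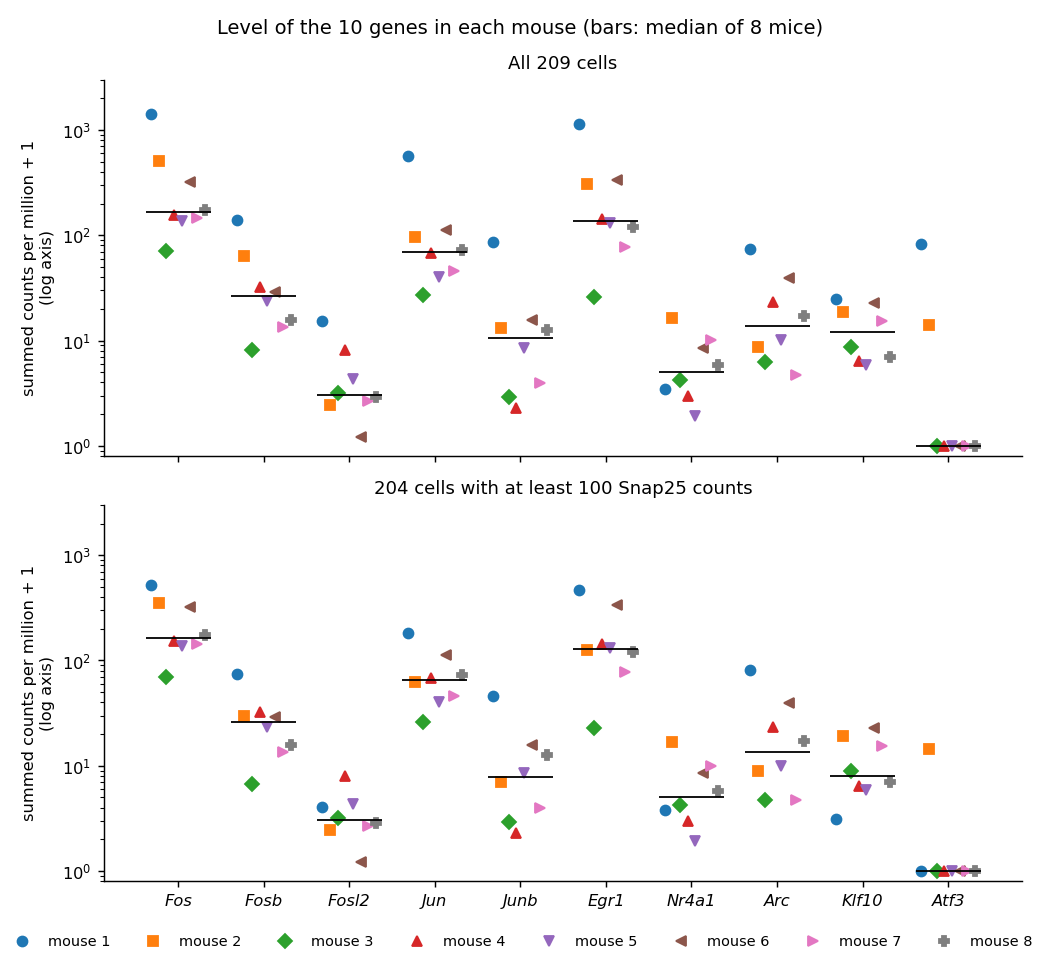
Summed CPM + 1 of each gene in each of 8 mice, on a log axis, for all 209 cells (top) and for the 204 cells with at least 100 *Snap25* counts (bottom). Each symbol is 1 mouse and the bar is the median. Mouse 1 was highest for 9 of 10 genes in all cells and for 6 of 10 in cells with *Snap25*.

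**Figure D2:**
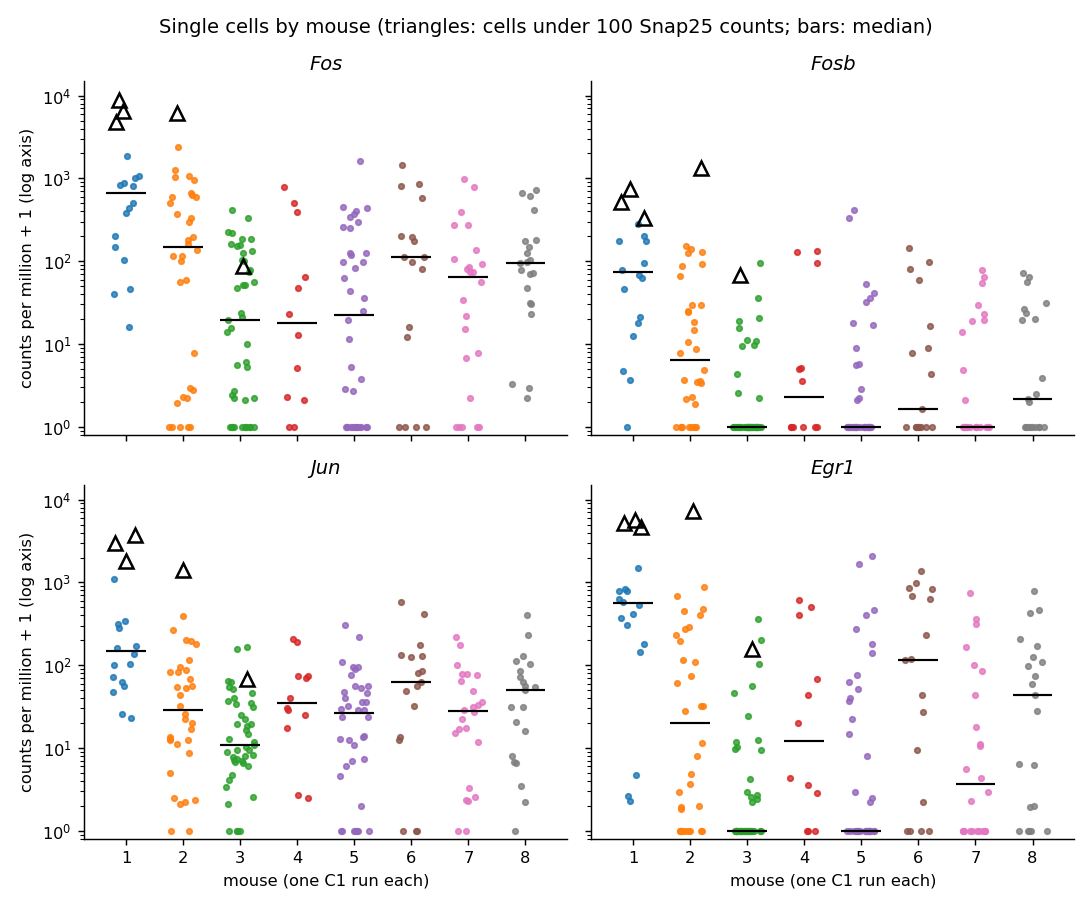
CPM + 1 (log axis) of *Fos*, *Fosb*, *Jun*, and *Egr1* in each cell, by mouse. Triangles are the 5 cells under 100 *Snap25* counts and the bars are medians. The triangles of mouse 1 are the highest *Fos*, *Jun*, and *Egr1* cells of that mouse, and the median of mouse 1 is the highest of the 8 mice for each of the 4 genes.

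The high levels of mouse 1 were not limited to the cells without *Snap25*, except for *Fosl2*, *Klf10*, and *Atf3*, where mouse 1 no longer led without them. The median cell of mouse 1 held *Fos* at 656 CPM against 16.9–147 CPM in the other mice, and 5 of the 10 genes against 1–3, with its 3 cells without *Snap25* included. Among cells with *Snap25*, 5 or more genes were present in 53.3% of those of mouse 1 and in at most 24.2% (mouse 2) elsewhere. Mouse 1 was captured alone, on a medium chip of the same C1 machine that ran mice 2, 4, 6, and 7, and its cells had the fewest genes detected (median 7750 against 8794–10009) and the lowest cDNA concentration (median 2.61 against 2.70–5.49 ng/µl). The part of these measures in the result was not tested. Mice captured on the same day had unlike levels in 1 case and similar ones in the other: mice 2 and 3, on different machines and on a medium and a large chip, had *Fos* at 504 and 69.8 CPM, and mice 7 and 8, on different machines but both on medium chips, had 144 and 174 CPM. Where a mouse was spread over 2 library plates, the *Fos* level was 532 and 369 CPM in mouse 2, 118 and 174 CPM in mouse 4, and 468 and 198 CPM in mouse 6, differences smaller than that between mice 1 and 3 but based on 4 to 28 cells each.

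Per kilobase of exon, which allows levels of different genes to be compared, the median over mice was highest for *Fos* (69.6 CPM per kb), then *Egr1* (30.4), *Jun* (21.6), *Junb* (4.14), *Arc* (4.13), *Fosb* (4.05), *Klf10* (2.63), *Nr4a1* (1.14), *Fosl2* (0.209), and *Atf3* (0). *Fos* exceeded *Egr1* in 8 of 8 mice and *Jun* exceeded *Junb* in 8 of 8, so 3 genes stood above the rest. *Egr1* exceeded *Jun* in 7 of 8. In the middle of the order, *Junb* exceeded *Arc* in 4 mice, *Arc* exceeded *Fosb* in 5, and *Fosb* exceeded *Klf10* in 5, so these neighbors did not differ beyond their spread.

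Single cells of the same mouse also differed. Of 209 cells, 28 (13.4%) had none of the 10 genes at 10 counts, 44 had 1, 38 had 2, 32 had 3, 27 had 4, and 40 (19.1%) had 5 or more, the most being 9 genes in each of 2 cells. Cells with 5 or more genes were found in each of the 8 mice, making up 61.1% of the cells in mouse 1, 26.5% in mouse 2, and 6.67% in mouse 3, the lowest. Each of the 5 cells without *Snap25* was among them, with 5–9 genes. The 10 cells with 7 or more genes came from 6 mice, and 8 of them had *Snap25*. Only 6 of these 10 had *Th* at 10 counts, against 192 of the other 199, although 9 of the 10 had *Slc6a3*. Among the 8 cells that had *Th* under 10 counts but at least 100 of *Slc6a3*, 3 were in this set. These 10 cells had a median of 724062 counts, 8523 genes detected, and 3.21 ng/µl of cDNA, against 782046 counts, 9159 genes, and 4.11 ng/µl in the other 199. The part of these differences in the result was not tested.

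*Fos*, *Fosb*, *Egr1*, and *Junb* were often found in the same cells. Of the 66 cells with *Fosb*, 65 had *Fos*, and each of the 29 cells with *Junb* and of the 31 with *Arc* had *Fos*. *Fosb* was in 61.1% of cells with *Egr1* but in 9.24% of cells without it, in the same direction in 8 of 8 mice. Across the 209 cells, after the mean of each mouse had been taken out, the correlation of log2(CPM + 1) was 0.65 for *Fosb* and *Egr1*, 0.63 for *Fos* and *Fosb*, 0.63 for *Fos* and *Egr1*, 0.50 for *Junb* and *Egr1*, and 0.50 for *Fosb* and *Junb*. *Jun* had 0.41 to *Fos*, 0.40 to *Fosb*, and 0.41 to *Egr1*, and *Arc* had 0.35, 0.40, and 0.39 to the same genes. *Klf10* stood outside, with 0.03 to *Fos*, 0.05 to *Fosb*, 0.04 to *Jun*, and 0.24 to *Fosl2*, its highest: it was in 11.7% of cells with *Fos* and 15.3% of cells without. Over all 45 pairs the median was 0.24, and 9 pairs were above 0.40. Without the 5 cells the median was 0.22, with 0.62 for *Fosb* and *Egr1*, 0.61 for *Fos* and *Fosb*, and 0.61 for *Fos* and *Egr1*. There were 9 pairs above 0.40 here too, but *Jun* with *Fos* (0.37) and *Jun* with *Egr1* (0.36) were no longer among them, and *Arc* with *Junb* (0.44) and *Arc* with *Egr1* (0.40) were. *Fosl2* and *Atf3* were a pair that rested on them, with 0.31 in all cells and -0.03 without. Both genes of a pair are read from the same library. Within mice, log2 total counts had a correlation of 0.08 to *Fos* and -0.15 to *Junb*, and *Egr1* had -0.16 to the genes detected and -0.19 to log2 cDNA concentration. The part of these in the pairs was not tested.

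**Figure D3:**
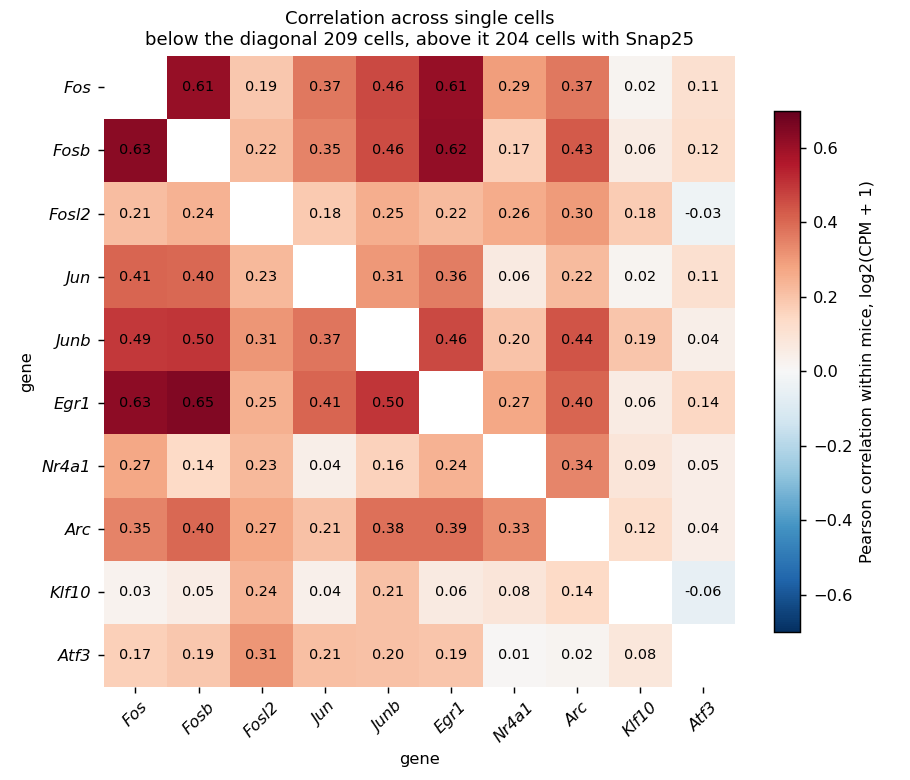
Pearson correlation of log2(CPM + 1) between each pair of genes across single cells, with the mean of each mouse taken out, below the diagonal in 209 cells and above it in the 204 cells with *Snap25*. The highest values are those among *Fos*, *Fosb*, and *Egr1* (0.63–0.65 in 209 cells), and the row of *Klf10* is near 0 for most genes.

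Genes outside the 10 whose pattern over cells was most like theirs were found by the same within-mouse correlation, among 10551 genes with 10 counts in at least 20 cells. *Dusp1*, a phosphatase that shuts off MAP kinases and is itself an immediate early gene, was over all 209 cells the nearest gene to *Fos* (0.54), *Fosb* (0.40), *Jun* (0.39), and *Egr1* (0.42) and among the nearest 5 for *Junb* (0.37) and *Arc* (0.31). *Btg2*, an antiproliferative early gene, came second for *Fos* (0.37) and *Jun* (0.36). Genes on none of the lists were close behind for *Fosb* (*Pgr15l*, 0.37, and the cannabinoid receptor gene *Cnr1*, 0.37) and *Egr1* (*Gas7*, 0.41, and the plexin gene *Plxnc1*, 0.41). Of the 5 genes nearest to each, *Dusp1* kept its place in cells with *Snap25* for *Fos* (0.51), but *Cnr1* was above it for *Fosb* (0.43 against 0.35), *Plxnc1* for *Egr1* (0.45 against 0.38), and *Btg2* for *Jun* (0.35 against 0.33). *Cnr1* and *Plxnc1* were also above it without mouse 1 (0.40 against 0.38, and 0.44 against 0.40). For *Junb* the nearest was *Ucp2* (0.38), which encodes a mitochondrial uncoupling protein, and *Fstl1* (0.35) and *Btg2* (0.35) followed *Dusp1*. For *Arc* the nearest were the potassium channel gene *Kcna5* (0.41) and *Npas4* (0.34), a neuron-specific early transcription factor. *Nr4a1* was nearest to *Adcyap1* (0.29), which encodes the neuropeptide PACAP, and *Klf10* to *Sgms1* (0.34), a sphingomyelin synthase. *Cldn10* and *Vim* were among the 5 nearest to *Jun* (0.28 and 0.26), and these fell to 0.20 and 0.21 without mouse 1 and to 0.21 and 0.13 in cells with *Snap25*.

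To see what went with *Fos* across mice, the counts of cells with and without 10 counts of *Fos* were summed separately in each mouse. Mouse 1 had too few cells without *Fos*, which left mice 2 to 8. *Arc* was at 5.49–46.4 CPM (median mouse 15.9) in *Fos*+ cells, and in *Fos*- cells 3 counts were seen in all, with none in 5 of the 7 mice. The groups did not overlap, and the pooled ratio was 330-fold, with a counting interval of 113–1604. *Fosb* was at 12.4 to 94.9 CPM in *Fos*+ cells and 0–1.60 CPM in *Fos*- cells, again without overlap (pooled ratio 67.0, counting interval 47.4–98.1). In edgeR's quasi-likelihood test over 12890 genes, *Arc* (log2 fold change 8.49 ± 0.94 SE, adjusted p = 0.0004535) and *Fosb* (6.01 ± 0.94, adjusted p = 0.0286) were the only genes called, apart from *Fos* itself, which defined the classes. With so few counts in *Fos*- cells, both passed the filter on low counts through the *Fos*+ group, so that they had to differ, and the calls are given as a description. The background rate of such calls was 0.0155% of genes tested, and these 2 calls are all of it. With the mouse as a block, *Arc* kept its call (edgeR adjusted p = 0.0234) and *Fosb* did not (0.0585), where 0.00776% of genes were called. In cells with *Snap25* the same 2 genes were called (edgeR adjusted p = 0.0005676 and 0.0446). Leaving out any mouse kept *Arc* (adjusted p at most 0.00492) but ended the call of *Fosb* in each of the 7 cases (0.0712–0.140). The call of *Arc* was lost in edgeR when cells were thinned to 500000 counts (log2 fold change 5.48, adjusted p = 0.421) and when cells were positive for *Fos* from 1 count (adjusted p = 0.226) or from 50 counts (0.57).

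None of the other 6 members tested was called by edgeR. *Egr1* averaged 230 ± 160 CPM (SD, n = 7 mice) in *Fos*+ cells and 31.6 ± 42.9 CPM in *Fos*- cells, and mouse 7 went the other way (67.2 against 96.6 CPM); its log2 fold change was 2.79 ± 0.90 SE (edgeR adjusted p = 0.9999, unadjusted p = 0.00644). *Junb* had a log2 fold change of 4.52 ± 1.06 SE (edgeR adjusted p = 0.918), was higher in 6 of 7 mice, and was called by DESeq2 (adjusted p = 0.00533), which called 8 genes in all (0.0621%). With 17 counts in *Fos*- cells against 1138 in *Fos*+ cells it too passed the filter through the *Fos*+ group, so that this call is a description. At an unadjusted p under 0.05 edgeR had 5 of the 8 members (*Fosb*, *Fosl2*, *Junb*, *Egr1*, and *Arc*), against 3.60% of all genes. Of these 5, *Fosb*, *Junb*, and *Arc* passed the filter through the *Fos*+ group and had to differ. *Fosl2* was over the level of the filter in the *Fos*- cells of 3 of 7 mice. The count is therefore a description. *Jun* averaged 75.4 ± 33.2 CPM against 44.6 ± 45.8 CPM (log2 fold change 0.66 ± 0.52 SE, edgeR adjusted p = 0.9999). By share of cells, *Jun* was in 78.1% of *Fos*+ and 43.1% of *Fos*- cells, and the mean difference over mice of 30.4 percentage points (exact sign-flip test, 7 mice, two-sided p = 0.03125, where 0.01562 is the lowest that can be had) came to 17.5 points (exact p = 0.141) when cells were thinned to 500000 counts each. For *Klf10* the mean difference in share was -4.86 points (exact p = 0.406). Of the 10 genes, 8 besides *Fos* passed the filter on low counts, and *Atf3* did not: it had counts in the *Fos*+ cells of 1 mouse and was at 0 in both classes of the other 6.

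**Figure D4:**
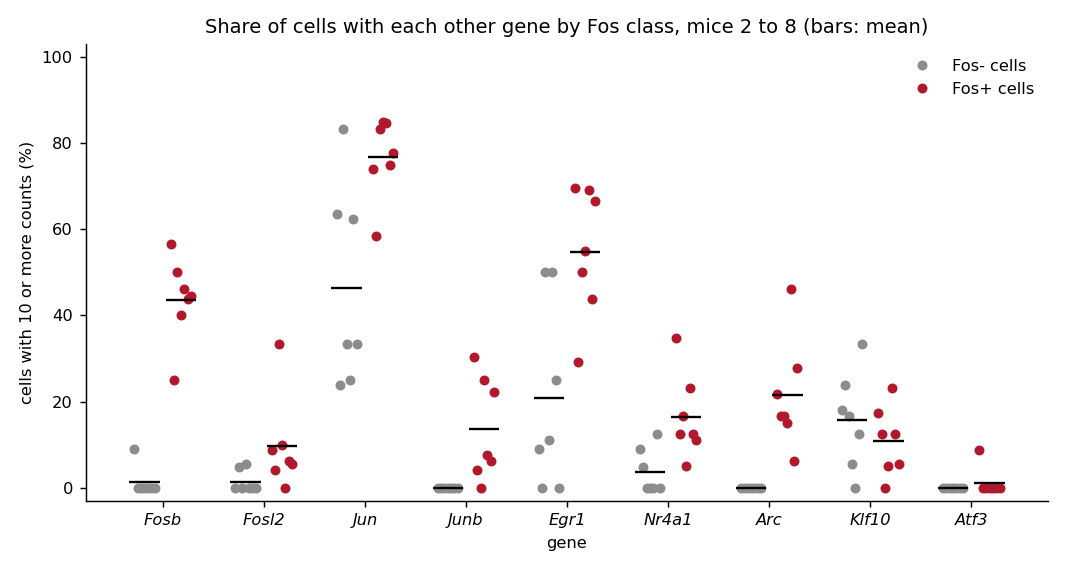
Percent of *Fos*- (gray) and *Fos*+ (red) cells with 10 or more counts of each other gene. Points are mice 2 to 8 and bars are their mean. *Arc* and *Junb* were in 0% of *Fos*- cells in each of the 7 mice, while *Jun* was in 23.8–83.3% of them.

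Other early genes, from a list of 53, had a positive fitted change in 25 of 34 cases. Of these 34, 0 were called by edgeR between *Fos*+ and *Fos*- cells, 7 had an unadjusted p under 0.05, each higher in *Fos*+ cells, and DESeq2 called 1 (*Dusp6*). Their median log2 fold change was 0.72, against 2.51 for the 8 members tested and -0.02 for all genes. The median of the members includes *Fosb*, *Junb*, and *Arc*, which passed the filter on low counts through the *Fos*+ group. Of 14 heat shock and protein folding genes tested 0 were called by edgeR or DESeq2 and 0 had an unadjusted p under 0.05. Of 10 genes of the integrated stress response tested 0 were called by either tool and 1 (*Chac1*) had an unadjusted p under 0.05 in both, as did 1 (*Gal*) of 7 axon injury genes, with 0 called. *Hspa1a* and *Hspa1b*, the strongly heat-inducible chaperone genes, were listed at 0 in each of the 8 mice. These genes are near-identical copies, and reads that matched more than 1 gene were left out of the counts, so the 0 does not show that they were not expressed. Among the 11 dopamine neuron genes 0 were called by edgeR or DESeq2, and 0 had an unadjusted p under 0.05. The oligodendrocyte marker *Mbp* was not called by edgeR or DESeq2 but had an unadjusted p under 0.05 in both, higher in *Fos*+ cells, and its part in the result was not tested.

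Mouse 1 was also highest for other early genes. Among genes with a mean of at least 10 CPM, it was highest for 14 of 29 on that list (48.3%), against 23.2% of all 9116 such genes, and for 9 of 29 (31.0%, against 21.7%) in cells with *Snap25*. *Dusp1* was at 437 CPM in mouse 1 and at most 122 CPM in the others, but at 141 CPM without the 3 cells. *Gadd45g*, a growth arrest gene, was at 432 CPM in mouse 1 and at most 109 CPM elsewhere, and rose to 491 CPM without them. Mouse 1 was highest for 0 of 10 dopamine neuron genes.

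*Neurod6*, a bHLH transcription factor that marks a set of ventral tegmental dopamine neurons, was 1 of the genes by which the study divided dopamine neurons. It had at least 10 counts in 49 of the 209 cells. Mice 1, 2, 3, 5, 7, and 8 had at least 3 cells of each class (3, 10, 8, 6, 10, and 10 *Neurod6*+ cells), and the 5 cells without *Snap25* were all *Neurod6*-. The median cell held 2 of the 10 genes in both classes. Over the cells of all mice, 5 or more of the genes were present in 6.12% of *Neurod6*+ and 23.1% of *Neurod6*- cells, shares to which mouse 1, with the most such cells, gave 3 of the 49 *Neurod6*+ cells and 15 of the 160 *Neurod6*- cells. Depth was similar, at a median of 810098 and 757692 counts.

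*Egr1*, *Arc*, *Junb*, and *Fosl2* were each less frequent in *Neurod6*+ cells in 6 of 6 mice. The same was so for 1.40% of the 12604 genes tested other than *Neurod6*, among which genes found in every cell of a mouse cannot be lower there. In some mice the direction rested on 1 positive cell, a *Neurod6*- one. These were mice 3 and 7 for *Junb*, mice 7 and 8 for *Fosl2*, and mouse 7 for *Arc*. In mouse 5 *Egr1* differed by only -1.04 percentage points. *Egr1* was in 28.6% of *Neurod6*+ and 47.5% of *Neurod6*- cells, and the mean difference over mice was -26.0 ± 21.6 percentage points (SD). For *Arc* the shares were 4.08% and 18.1% (-16.7 ± 13.5 points), for *Junb* 4.08% and 16.9% (-16.4 ± 10.4 points), and for *Fosl2* 0% and 8.75% (-9.89 ± 5.16 points). In each of these 4 cases the exact sign-flip test over mice, two-sided, gave p = 0.03125 before any adjustment for the 10 genes compared, and 6 mice allow no lower value. For *Fosl2*, with 0 *Neurod6*+ cells positive, no mouse could go the other way, and its p is a description. The same p held for all 4 without the cells that lacked *Snap25*, and for *Egr1*, *Arc*, and *Junb* but not *Fosl2* (exact p = 0.0625) in cells thinned to equal depth. *Fos* differed in sign: it was in 75.5% of *Neurod6*+ and 62.5% of *Neurod6*- cells, higher in 5 of 6 mice (9.56 ± 15.3 points, exact p = 0.156). With 3 cells taken as the floor and cells pooled over mice, the 0 of 49 cells with *Fosl2* allow a share of up to 6.12%.

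**Figure D5:**
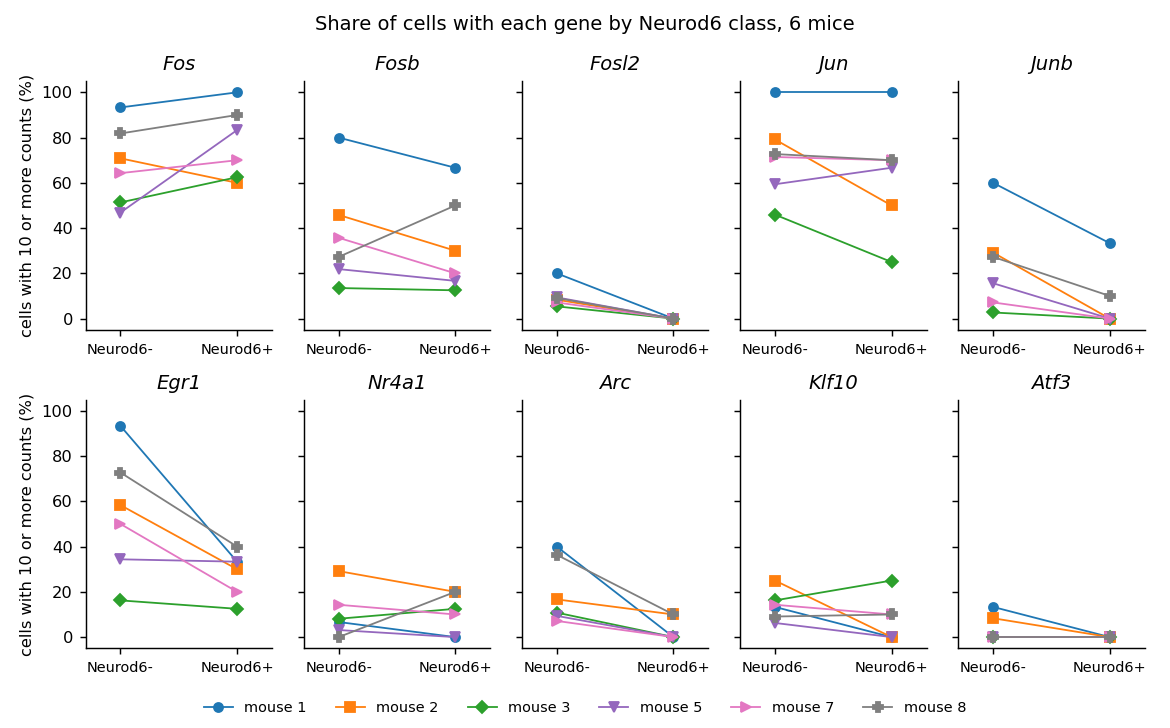
Percent of cells with 10 or more counts of each gene in *Neurod6*- and *Neurod6*+ cells of the same mouse, 1 line per mouse (6 mice). Lines fall in each mouse for *Fosl2*, *Junb*, *Egr1*, and *Arc*, and rise in 5 of 6 for *Fos*.

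In level, *Fosl2* was at 0 CPM in the *Neurod6*+ cells of 3 mice and at 0.104–0.223 CPM in the others, against 1.98 CPM (mouse 2) to 17.6 CPM (mouse 1) in *Neurod6*- cells. The groups did not overlap, and 4 counts stood against 465, a pooled ratio of 44.1 (counting interval 17.1–162) in favor of *Neurod6*- cells. With 4 counts in *Neurod6*+ cells, *Fosl2* passed the filter on low counts only through the *Neurod6*- group, so that it had to differ, and its test is given as a description. In edgeR's test it was the only member of the 9 tested that was called (log2 fold change -5.66 ± 0.93 SE, adjusted p = 0.0492), where 0.0476% of the 12604 genes other than *Neurod6* were called, 0.0317% as lower. At an unadjusted p under 0.05 there were 5 members (*Fosl2*, *Jun*, *Junb*, *Egr1*, and *Arc*), against 6.19% of genes. *Fosl2*, *Junb*, and *Arc* passed the filter through the *Neurod6*- group, so this count is a description, as is the count with the mouse as a block below. The edgeR adjusted p of *Fosl2* was 0.0217 without the 5 cells, where 0.0400% of genes were called, and 0.0689–0.189 when any mouse was left out. With the mouse as a block it was 0.181, and 0 members and 0% of genes other than *Neurod6* were called, with 6 members (*Fos*, *Fosb*, *Fosl2*, *Junb*, *Egr1*, and *Arc*) and 8.15% of genes at an unadjusted p under 0.05. DESeq2 called *Fosl2*, *Junb*, and *Arc* (adjusted p = 0.000425, 0.0366, and 0.04325), where 1.00% of genes were called. The calls of *Junb* and *Arc* carry the same limit as that of *Fosl2*: both had a level over the filter in the *Neurod6*+ cells of only 3 of 6 mice, with 51 and 86 counts in all, and passed through the *Neurod6*- group.

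*Junb* was at 0–8.69 CPM in *Neurod6*+ and 2.21–102 CPM in *Neurod6*- cells, with a log2 fold change of -3.70 ± 1.19 SE (edgeR adjusted p = 0.501). *Arc* was at 0–6.53 CPM and 6.33–88.0 CPM (-3.59 ± 1.18 SE, edgeR adjusted p = 0.530). *Egr1* was at 13.5–201 CPM and 26.8 to 1343 CPM (-2.32 ± 0.85 SE, edgeR adjusted p = 0.658). For each of the 3 the *Neurod6*+ value was the lower in 6 of 6 mice, though the ranges overlapped between mice. *Fos* was lower in level in *Neurod6*+ cells in 5 of 6 mice, at a mean of 168 ± 108 CPM (SD) against 479 ± 600 CPM (log2 fold change -1.43 ± 0.69 SE, edgeR adjusted p = 0.822), while being present in more of them. Without the 5 cells the *Neurod6*- mean was 266 ± 189 CPM and the log2 fold change -0.60 ± 0.52 SE (adjusted p = 0.998 by edgeR). *Jun* also moved, from -1.65 ± 0.77 SE to -0.57 ± 0.56 SE, and *Egr1* to -1.40 ± 0.71 SE. With mouse 1 left out, the log2 fold change was -0.78 for *Fos*, -0.26 for *Jun*, and -1.94 for *Egr1*. *Nr4a1* (-0.43 ± 1.11 SE) was lower in 4 of 6 mice.

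All 9 members tested had a negative fitted change, with a median of -1.65 against 0.00 for all genes, and -1.20 against 0.01 without the 5 cells. The sign of *Fosl2*, *Junb*, and *Arc* was largely set beforehand, as they passed the filter on low counts through the *Neurod6*- group. *Nr4a1* and *Klf10* were over its level in the *Neurod6*+ cells of only 4 of 6 mice. The count of 9 and the median are therefore a description. *Atf3* did not pass the filter on low counts and was not tested. It had 0 counts in *Neurod6*+ cells and 1420 in *Neurod6*- cells of 2 mice. Of the other 53 early genes 35 were tested and 0 were called by edgeR (5 at an unadjusted p under 0.05, 1 by DESeq2, *Klf4*), with a median of -0.65. Heat shock genes (14 tested, median -0.09) and genes of the integrated stress response (9 tested, 0.11) had 0 calls in edgeR and 1 gene each at an unadjusted p under 0.05 (*Hsph1* and *Ppp1r15a*), the latter called by DESeq2. *Mbp* was not called by either tool but had an unadjusted p under 0.05 in both, lower in *Neurod6*+ cells, and its part in the result was not tested. Apart from *Neurod6*, which defined the classes and was left out of these counts, 3 genes outside the list passed edgeR's test with at least 10 CPM and in the same direction in each mouse: the adhesion gene *Cdh13* (939 ± 240 against 398 ± 72.1 CPM) and the bHLH gene *Tcf12* (166 ± 78.4 against 29.4 ± 12.5 CPM) were higher in *Neurod6*+ cells, and the vesicle protein gene *Rph3a* (67.7 ± 18.4 against 194 ± 42.4 CPM, SD, n = 6 mice) was lower. With the mouse as a block their edgeR adjusted p was 0.144, 0.0795, and 0.181, so none of the 3 kept its call.

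Between the sexes, 0 of the 9 members tested were called by edgeR, where 0.0322% of 15528 genes were called, all 5 of them the sex-linked *Xist*, *Ddx3y*, *Eif2s3y*, *Uty*, and *Kdm5d*, which followed the sex labels. At an unadjusted p under 0.05 there were 3 members (*Jun*, *Egr1*, and *Arc*) against 8.12% of genes, and DESeq2 called *Jun* and *Arc*, where 1.22% of genes were called. *Arc* was at 72.7, 22.5, and 38.5 CPM in females and 3.75–16.2 CPM in the 5 males (log2 fold change, male against female, -2.38 ± 0.53 SE, edgeR adjusted p = 0.366). A single cell held 97.9% of the *Arc* counts of the female mouse 4, and another 75.0% of those of the female mouse 6. By share of cells with *Arc* the sexes overlapped, with 8.33% in mouse 4 against 14.7% and 23.8% in the male mice 2 and 8. *Jun* was at 568, 66.7, and 112 CPM in females and 25.8 to 96.2 CPM in males, with overlap (-2.11 ± 0.63 SE, edgeR adjusted p = 0.510). The female mouse 1 set much of this: the median log2 fold change over the members was -1.75 with it and -0.40 without. All 3 females ran on the same C1 machine, which also ran 2 of the males.

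Between chip sizes, medium (mice 1, 2, 6, 7, and 8) against large (mice 3, 4, and 5), 0 members were called by edgeR (0% of 15528 genes) or by DESeq2 (0.573% of genes) and 6 of 9 had an unadjusted p under 0.05 in edgeR, against 5.87% of all genes. *Fos* was at 144 to 1402 CPM on medium and 69.8–154 CPM on large chips, with overlap (log2 fold change 2.05 ± 0.73 SE, edgeR adjusted p = 0.840). The median over members was 1.88, against 0.03 for all genes, and 1.11 without mouse 1.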

How the data were processed

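Single cells of 8 mice were analyzed from the count table that the authors deposited, which holds read counts per gene and cell without normalization. According to the submitters' processing notes and the study's methods, reads were trimmed with Trimmomatic 0.3.2, aligned to GRCm38 with TopHat2 2.1.1, and counted with featureCounts 1.5.0-p3 on RefSeq genes, leaving out reads on more than 1 gene. There were no molecular identifiers, and the strand setting is not given in the sources used here. Deposited tables of gene annotation, cell annotation, and sequencing metrics were not used, the last because it names no cells. Of 47082 entries, 5721 held no counts and 95 were spike-ins or transgenes (0.00457% of counts), and these were left out. All columns matched a labeled cell, and no 2 cells were identical.

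Cells with at least 500000 counts were kept, and 10 counts of a gene made a cell positive. Counts were added up within each mouse, or within each class of a mouse that had at least 3 cells of both classes, and tested in edgeR 4.0.16 (R 4.3.3, TMM, filterByExpr, quasi-likelihood test, Benjamini-Hochberg adjustment over all genes tested, threshold 0.05), with DESeq2 1.42.0 as the other tool. SE is the log2 fold change divided by the square root of F. Both classes of a mouse come from the same animal, and their deviations from the class means correlated at 0.0668–0.269 (*Neurod6*) and 0.0500–0.315 (*Fos*), so the mouse was tried as a block. Shares were compared with exact sign-flip tests over mice. Intervals and floors (3 counts) are 95% and cover counting error only. CPM is scaled to 1000000 counted reads, with 1 added before logs. Exon lengths came from GENCODE M21. The edgeR steps were tested on simulated counts. Python 3.11.15 was used.

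The members and gene lists were chosen with earlier results of these data known. The genes named beyond the 10 were up to 10 per test past the threshold, with at least 10 CPM in the higher group and the same direction in each mouse (between groups of mice, no overlap), up to 4 called genes per list, and the 5 genes outside the list most correlated with a member in at least 20 positive cells. *Nr4a2*, *Gadd45g*, *Hspa1a*, *Hspa1b*, and list genes named at an unadjusted p were picked after their values were seen. Alternatives were DESeq2, its size factors, no filter, other limits on counts and cells, thinning to 500000 counts, each mouse left out, and, added after seeing the data, cells with at least 100 *Snap25* counts. The values of 1 oligodendrocyte marker are not reported here.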

Additional observations from a re-analysis of the deposited data

Results flagged for a closer look

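Over the 8 mice, 30 sets of values (3 for each gene) were searched for a mouse set apart from the rest. The rule was a gap to the next mouse that took up more of the whole range than Dixon's 95% critical value for 8 samples. Of the 30 sets, 13 had such a mouse. The critical value assumes normal data, while levels here were skewed and the 3 sets of a gene overlap. No rate by chance is therefore given. In all but 2 of the 13 the mouse was mouse 1. By level in all cells these were *Fos* (1402 CPM), *Egr1* (1137 CPM), *Jun* (568 CPM), *Fosb* (137 CPM), *Junb* (85.1 CPM), and *Atf3* (81.4 CPM). Of these 6, *Fosb* (73.6 CPM) and *Junb* (45.3 CPM) still set mouse 1 apart in cells with *Snap25*, and *Arc* (80.0 CPM) did so in those cells alone. By share of cells, mouse 1 stood out for *Fosb* (77.8%) and *Junb* (55.6%). In cells with *Snap25*, mouse 4 stood out for *Fosl2* (7.06 CPM) and mouse 2 for *Atf3* (13.4 CPM), the latter against 0 counts in 7 mice.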

How the results depend on the processing

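The number of members called between *Neurod6* classes, 1 in the main test, was 3 by DESeq2, 1 in cells with *Snap25*, and 0 with the size factors of DESeq2, without the filter, with cells of at least 100000 or 750000 counts, with positive cells from 1 or 50 counts, after thinning, with at least 5 cells per class, and without each of the 6 mice (lowest 0, highest 0). Between *Fos* classes, 2 genes were called in the main test, 8 by DESeq2, 1 with cells of at least 100000 counts (*Arc*), with cells of at least 750000 (*Egr1*), after thinning (*Fosb*), and with at least 5 cells per class (*Arc*), 0 with positive cells from 1 or 50 counts, and 1–2 without each mouse; leaving out mouse 4 gave *Junb* and *Arc*. With the mouse as a replicate block, 0 members were called between *Neurod6* classes and 1 gene between *Fos* classes, and the block changed the call of no member but *Fosl2* and *Fosb*. Between the sexes DESeq2 called 2 members where edgeR called 0, and without each mouse 0 were called (lowest 0, highest 0), as between chip sizes. The share of *Fos*+ cells, 65.6%, stayed at 62.8–68.9% without each mouse, and the share of cells with 5 or more members, 19.1%, at 15.2–22.6%, but was 40.7% when 1 count made a cell positive. Signs turned for *Jun* and *Nr4a1* between *Neurod6* classes in cells of at least 750000 counts (log2 fold changes 0.0788 and 0.40), for *Nr4a1* without mouse 7 (range over mice left out -0.755 to 0.149), for *Nr4a1* between *Fos* classes with positive cells from 1 count (-0.0652), for *Klf10* between the sexes in cells with *Snap25* (-0.70 to 0.0904), and for the difference in share of *Nr4a1* between *Neurod6* classes in cells with *Snap25* (-0.335 points), none of them called. The cause of these changes was not tested. Classes of 3 to 37 cells per mouse limit what could be seen.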
